A study of Mus musculus with 6 samples.

Results

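In mouse erythroblasts carrying a hairpin against Plcg1, 687 of 10085 methyl-CpG regions (6.81%) were listed both before and after 24 h in differentiation medium with erythropoietin (Epo), in some of the libraries but not in all of them. These regions were chosen by presence: peaks of 4 lists were merged where they overlapped by at least 1 bp, and a merged region was kept when at least 1 list of 0 h and at least 1 list of 24 h held it and exactly 2 or 3 of the 4 lists did. They are called the partly shared regions below. Of them, 383 stood in 2 lists and 304 in 3 lists. They lay within 1 kb of an end of protein-coding genes in 28.1% of cases, beside 13.2% of all merged regions. That share was 26.0% for regions of both hairpins at 24 h only and 45.1% for regions in all 4 lists. A partly shared region was in or within 10 kb of 22 of 156 genes for developmental transcription factors (14.1%), beside 2.97% of all protein-coding genes. It was so for 0 of 26 erythroid transcription factor genes, which allows a share of up to 11.5%, so no difference from all protein-coding genes was shown. The gene lists were written with earlier results of these data known, and no set test was made. A single gene on chromosome 10, Pcdh15, held 11 of the regions, among 30 merged regions of all classes in its body.

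The cells were of the I/11 line, an erythroblast line from the fetal liver of p53-deficient mouse embryos of day E12.5, so every group shared the p53 deficiency. Cells were infected with lentivirus for hairpin 133 or hairpin 14, both directed at Plcg1, or for a scrambled hairpin, selected with puromycin, and harvested 72 h after infection (0 h) or 96 h after it, once they had spent 24 h in differentiation medium with Epo and holo-transferrin. Before that medium they grew in Epo, stem cell factor and dexamethasone. The 6 libraries of the series are 1 for each hairpin and time, and the 4 libraries of hairpins 133 and 14 supplied the peak lists described here. The scrambled-hairpin libraries were not analysed here. Each group is 1 library of 1 cell line, so no difference between hairpins or times has a replicate check, and a test below compares classes of regions in these libraries and not conditions.

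DNA was fragmented and the fraction held by MBD2-Fc was sequenced; in this fusion protein a domain that recognises methylated CpG is joined to an antibody tail. A listed peak is an interval in the list deposited for 1 library. It carries no score, read count or direction, and the depth behind it is unknown. The sources used here do not say whether a peak was called over a control or as a difference from the scrambled hairpin. The lists of hairpin 133 and hairpin 14 held 3900 and 3437 peaks at 0 h and 2960 and 2666 peaks at 24 h. Every peak was 151 bp wide except 1 of 120 bp. A list that lacks a region is no measurement of unmethylated DNA there. The lists hold no expression values, so neither the cell type nor the lowering of Plcg1 was checked against them.

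Methylation of cytosine in CpG dinucleotides is copied at cell division, and in vertebrate genomes most CpG outside CpG islands are methylated. CpG islands, the CpG-dense stretches at many promoters, are mostly unmethylated, with exceptions at imprinted genes, on the inactive X chromosome and, in cultured lines, at many developmental genes. A capture with a methyl-CpG binding domain recovers DNA that is methylated and dense in CpG. Plcg1 encodes phospholipase C gamma 1, which cleaves a membrane lipid into diacylglycerol and inositol trisphosphate downstream of receptors such as those for Epo and stem cell factor. Erythroid maturation goes along with a broad loss of DNA methylation.

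The promoter stretches of 8 genes are printed to the base, each being the part of a region before a start site. Promoter windows ran from 250 bases before to 50 bases after a start site. Among the genes named below, these 8 had the windows that were covered the most. On chromosomes with such windows, 71 of 669 partly shared regions (10.6%) overlapped one, so the stretches do not stand for the other regions. The sequences come from the RefSeq promoter table of GRCm38.p6, whose coordinates are those of mm10, are written 5′ to 3′ along the gene, and have every CpG in capitals. The first is in Sptbn1, for a spectrin of the membrane skeleton, at chr11:30198309-30198507 on the minus strand, and the second in Trh, for the precursor of thyrotropin-releasing hormone, at chr6:92244656-92244834 on the minus strand.
Sptbn1: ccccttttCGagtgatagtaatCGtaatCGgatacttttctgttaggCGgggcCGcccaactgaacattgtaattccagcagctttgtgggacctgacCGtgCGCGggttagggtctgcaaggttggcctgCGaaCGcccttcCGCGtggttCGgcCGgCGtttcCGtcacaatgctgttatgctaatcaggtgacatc
Trh: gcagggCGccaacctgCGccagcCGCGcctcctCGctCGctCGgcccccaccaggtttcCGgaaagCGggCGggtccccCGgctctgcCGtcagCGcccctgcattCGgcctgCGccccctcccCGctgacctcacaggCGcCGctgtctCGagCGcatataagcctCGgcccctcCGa
The next pair are Cldn1, for a claudin of tight junctions, at chr16:26371840-26371957 and Arid3c, for a DNA-binding protein, at chr4:41731143-41731258, both on the minus strand.
Cldn1: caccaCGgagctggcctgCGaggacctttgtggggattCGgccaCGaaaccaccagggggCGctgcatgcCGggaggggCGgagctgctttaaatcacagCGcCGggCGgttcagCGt
Arid3c: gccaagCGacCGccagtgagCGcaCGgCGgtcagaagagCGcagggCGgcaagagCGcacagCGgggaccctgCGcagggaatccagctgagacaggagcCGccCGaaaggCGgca
Tnc, for the matrix protein tenascin C, lies at chr4:64047024-64047178 and Lhx1, for a LIM homeobox factor, at chr11:84525610-84525762, both on the minus strand.
Tnc: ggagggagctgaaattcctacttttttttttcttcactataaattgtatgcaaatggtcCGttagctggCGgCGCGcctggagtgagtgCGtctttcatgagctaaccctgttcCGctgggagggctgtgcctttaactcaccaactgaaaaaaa
Lhx1: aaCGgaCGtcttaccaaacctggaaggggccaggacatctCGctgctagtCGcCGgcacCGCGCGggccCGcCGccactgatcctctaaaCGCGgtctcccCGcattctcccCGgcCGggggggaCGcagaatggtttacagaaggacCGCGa
The last are Ptprf, for a receptor tyrosine phosphatase, at chr4:118291407-118291558 on the minus strand and Dlec1 at chr9:119102420-119102508 on the plus strand.
Ptprf: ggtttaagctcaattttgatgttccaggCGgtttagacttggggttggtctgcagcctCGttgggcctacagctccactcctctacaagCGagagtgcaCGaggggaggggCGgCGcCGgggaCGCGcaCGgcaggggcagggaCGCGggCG
Dlec1: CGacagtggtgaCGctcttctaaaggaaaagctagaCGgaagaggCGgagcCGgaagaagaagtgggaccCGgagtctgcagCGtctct

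These stretches differed widely in CpG. Trh had 22 CpG in 179 bases and a GC content of 74.3%, and Lhx1 had 18 CpG in 153 bases. Tnc had 6 CpG in 155 bases and a GC content of 47.1%, with a run of thymines that holds none. The Sptbn1 stretch had 16 CpG in 199 bases and stands 250 to 52 bases before a start site inside the gene; the centre of the region lies 69954 bp from the nearer end of the gene model. GGGCGG, the core of the box bound by Sp factors, was found on either strand in the stretches of Sptbn1, Trh, Cldn1, Arid3c and Ptprf, and not in those of Tnc, Lhx1 and Dlec1. All of these regions except those of Cldn1 and Dlec1 stood in 3 lists.

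The 8 combinations of lists that the selection allows were all filled, with 67 to 120 regions each. Among regions in 2 lists, hairpin 133 at both times had 120, hairpin 133 at 0 h with hairpin 14 at 24 h had 101, hairpin 14 at both times had 89, and hairpin 14 at 0 h with hairpin 133 at 24 h had 73. The same hairpin thus supplied both lists in 209 of 383 (54.6%), and different hairpins in 174. Among regions in 3 lists, 85 lacked hairpin 14 at 24 h, 74 lacked hairpin 133 at 24 h, 67 lacked hairpin 14 at 0 h and 78 lacked hairpin 133 at 0 h. No list was missing from most of them. The regions took up 11.5% of the peaks of hairpin 133 and 11.6% of those of hairpin 14 at 0 h, and 14.3% and 15.4% at 24 h. The 24 h lists are shorter, so the same regions are a larger share of them. These counts follow from the selection and have no test.

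**Figure D1:**
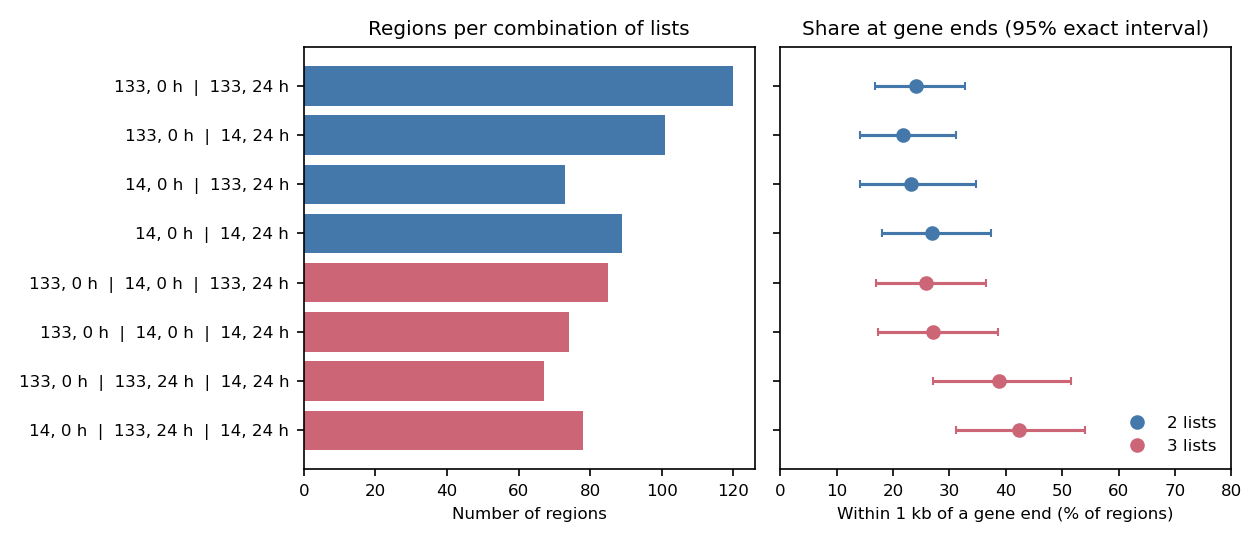
Left, the number of partly shared regions (x axis) for each combination of lists (y axis, hairpin number and time). Right, the share of those regions centred within 1 kb of a protein-coding gene's start or end, as points with 95% exact binomial intervals, from a low of 21.8% (hairpin 133 at 0 h, hairpin 14 at 24 h) up to 42.3% (hairpin 14 at 0 h, both hairpins at 24 h).

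Peaks of different times rarely had the same coordinates. Over the 991 pairs of a 0 h peak and a 24 h peak in 1 region, the starts differed by a median of 10 bp (95% interval of the median 9 to 11), with an upper quartile of 20 bp and a maximum of 124 bp. Identical coordinates were found in 26 pairs (2.62%, 95% exact binomial interval 1.72 to 3.82). Pairs from the same hairpin had a median of 10 bp and 2.53% identical, and pairs from different hairpins 10 bp and 2.72%. Regions in all 4 lists had a median of 10 bp and 2.94% identical.

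Within a time the picture was the opposite. In the 304 regions of 3 lists, the 2 peaks of the same time had identical coordinates in 289 (95.1%, interval 92.0 to 97.2) and differed by at most 48 bp in the rest. At 0 h this was 150 of 159 pairs (94.3%), against 573 of 809 (70.8%) in regions that both hairpins had at 0 h only (two-sided Fisher's exact test, p = 3.84e-11 after Benjamini-Hochberg adjustment over 6 added tests). At 24 h it was 139 of 145 (95.9%) against 318 of 362 (87.8%) in regions of 24 h only (same exact test, adjusted p = 0.00981). Both lists of a time thus gave the same interval to the base in most of these regions. The share was higher where the other time had a peak too. Both tests were added after the data were seen, on classes set by overlap of these same intervals, and so describe these lists only. The sources used here do not say how the authors placed the intervals, and lists of the same time cannot be taken as independent calls. With peaks of identical coordinates left out, 398 partly shared regions remained, of which 15 were in 3 lists.

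**Figure D2:**
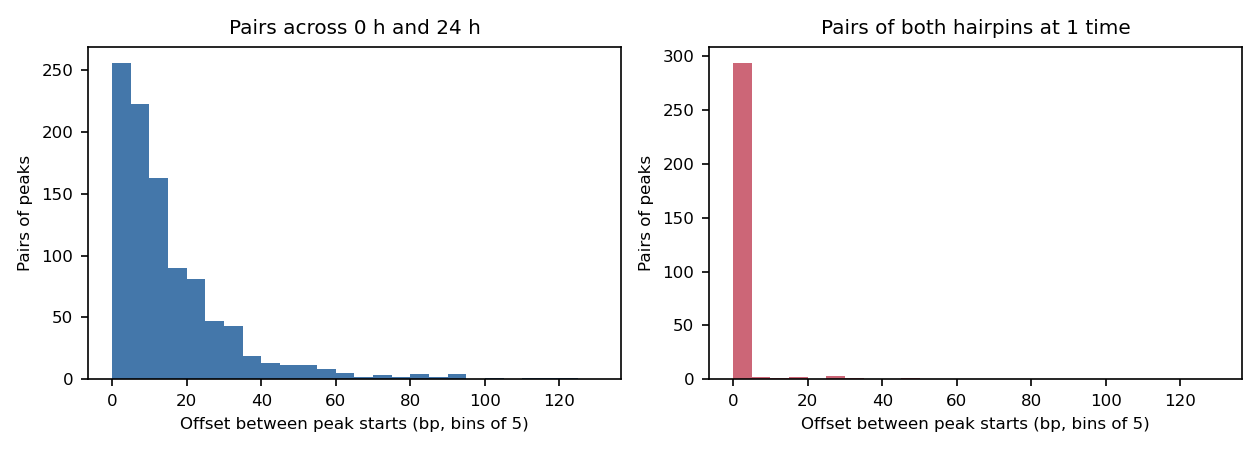
Number of pairs of peaks (y axis) by the offset between their starts in bp (x axis, bins of 5 bp) in partly shared regions. Left, the 991 pairs across 0 h and 24 h, spread over offsets up to 124 bp with a median of 10 bp; right, the 304 pairs of both hairpins at the same time, nearly all in the first bin.

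Most of the regions were far from the threshold of the selection. Their largest overlap across times was at least 100 bp in 660 of 687, and under 76 bp in 11. The regions just inside had 27, 32, 40, 50 and 58 bp of overlap, the last being the Sptbn1 region, where the peak of hairpin 133 at 0 h began at 30198402 and both 24 h peaks at 30198309. Just outside, the closest peaks of different times that did not overlap were 2, 17, 18, 22 and 26 bp apart, and 57 neighbouring pairs had a gap of at most 150 bp. Merged widths ran from 151 to 396 bp with a median of 161 bp.

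Where a list lacked a region, a near miss was uncommon. The nearest peak of the missing list lay within 1 kb in 5.22% of 766 cases for regions in 2 lists and in 7.57% of 304 cases for regions in 3 lists. For regions in 1 list it was 2.08% of 23955 cases. The median distance to it was 105 kb, 90.6 kb and 167 kb in the same order.

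Partly shared regions were found at gene ends more often than regions in 1 list and less often than regions in all 4 lists. A region counted as at a gene end when its centre lay within 1 kb of the start or the end of a protein-coding gene. This held for 193 of 687 (28.1%, 95% exact interval 24.8 to 31.6), against 13.2% of all merged regions placed on chromosomes. It held for 212 of 1171 regions (18.1%) that both hairpins had at 1 time only, a difference of 9.99 percentage points (Fisher's exact test, two-sided, adjusted over 8 tests, p = 1.86e-06). Regions in 1 list were lower, at 818 of 7985 (10.2%, same exact test, adjusted p = 4.68e-34). Regions in all 4 lists were higher, at 107 of 237 (45.1%, same exact test, adjusted p = 5.40e-06).

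Set against each time on its own, the partly shared regions stood above those of 0 h. Regions that both hairpins had at 0 h only were at gene ends in 118 of 809 cases (14.6%, Fisher's exact test, adjusted over 6 added tests, p = 5.59e-10). Regions of both hairpins at 24 h only were so in 94 of 362 (26.0%), 2.13 points below the partly shared ones (same exact test, adjusted p = 0.589), so no difference from the regions of 24 h was shown. Within the partly shared regions, those in 3 lists were at gene ends in 101 of 304 (33.2%) and those in 2 lists in 92 of 383 (24.0%, Fisher's exact test, adjusted over 8 tests, p = 0.0130). Once identical peaks of a time were dropped, 15 regions of 3 lists remained and the difference turned from 9.20 to -10.7 points (same exact test, adjusted p = 0.557). The highest shares were those of the combinations with both hairpins at 24 h, 42.3% with hairpin 14 at 0 h and 38.8% with hairpin 133 at 0 h. The 2 combinations with both hairpins at 0 h had 25.9% and 27.0%, close to the 21.8% to 27.0% of the combinations of 2 lists. This contrast among combinations was not tested.

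**Figure D3:**
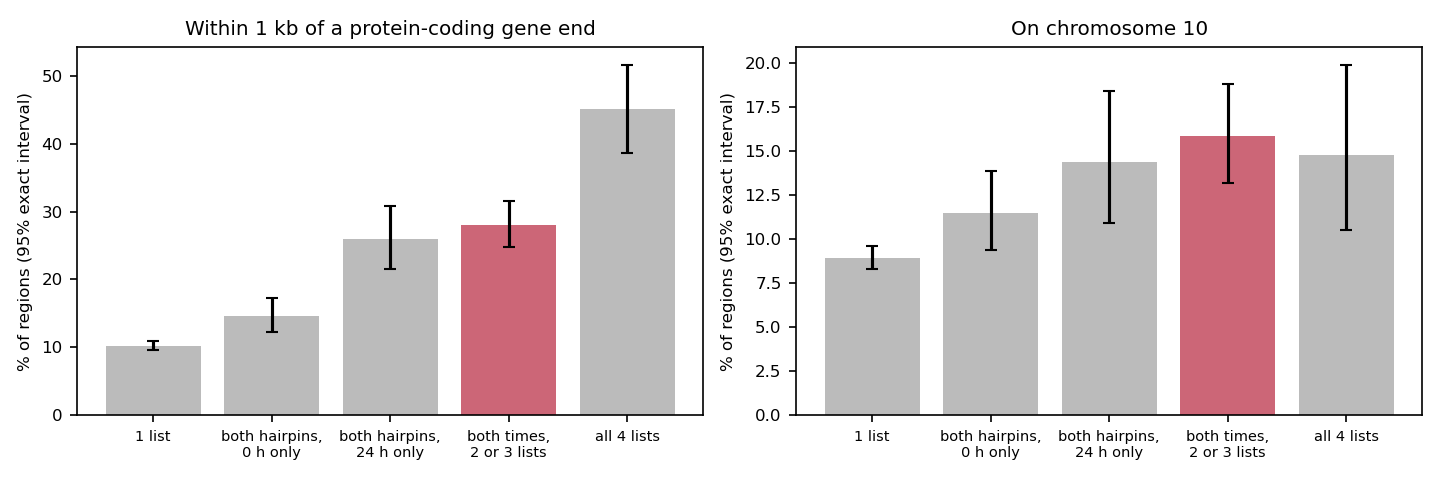
Share of regions (y axis, percent, bars with 95% exact binomial intervals) whose centre lies within 1 kb of a protein-coding gene end (left) or that lie on chromosome 10 (right), for regions in 1 list, of both hairpins at 1 time, at both times in 2 or 3 lists, and in all 4 lists. At gene ends the partly shared regions (28.1%) stand above regions in 1 list (10.2%) and below those in all 4 lists (45.1%).

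Many partly shared regions lay near start sites, more of them inside the gene than before it. Of the 669 partly shared regions on chromosomes with promoter windows, 160 (23.9%) had the centre within 1 kb of a protein-coding start site, against 7.59% of regions in 1 list and 37.3% of regions in all 4 lists. Of those, 115 (17.2% of the regions) lay downstream of the start site and 45 (6.73%) upstream. Regions in 1 list showed the same side, 5.16% downstream and 2.43% upstream, and so did those in all 4 lists, 25.4% and 11.9%. From 1 to 5 kb away, 5.38% of the partly shared regions lay downstream and 2.54% upstream. The centre was inside a protein-coding gene body in 61.7%, close to the 59.1% of all regions, and more than 10 kb from any gene in 11.4%, beside 16.1% of all regions. Exons, introns and untranslated regions were not told apart, since the gene table used has none.

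**Figure D4:**
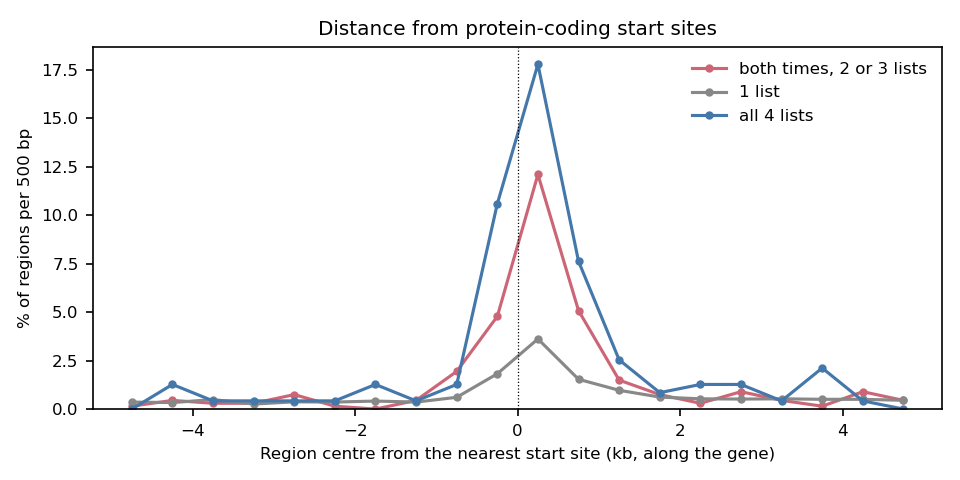
Share of regions per 500 bp (y axis, percent) by the distance of the region's centre from the nearest protein-coding start site (x axis, kb, negative before the start site). The partly shared regions (red) peak in the first 500 bp downstream, between regions in all 4 lists (blue) and regions in 1 list (grey).

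The promoters they touched were rich in CpG. A promoter window was overlapped by 71 of 669 regions (10.6%), beside 4.61% of all merged regions, 3.48% of those in 1 list and 17.8% of those in all 4 lists. For 60 of the 71 it was the window of a protein-coding gene. The 76 windows held a median of 21 CpG per 300 bases, with a range of 3 to 45, against a median of 7 over all 32817 windows. Their median GC content was 62.5% against 52.7%, and their CpG count was 0.728 of that expected from the base composition against 0.383. Windows touched by regions in 3 lists had a median of 23.5 CpG and those touched by regions in 2 lists 17, beside 16 for regions in 1 list, 17 for both hairpins at 0 h only, 24 for both hairpins at 24 h only and 21 for regions in all 4 lists. Touched windows of every class were thus above the median of all windows. The assay selects CpG-dense DNA, so these values describe the regions and have no test.

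**Figure D5:**
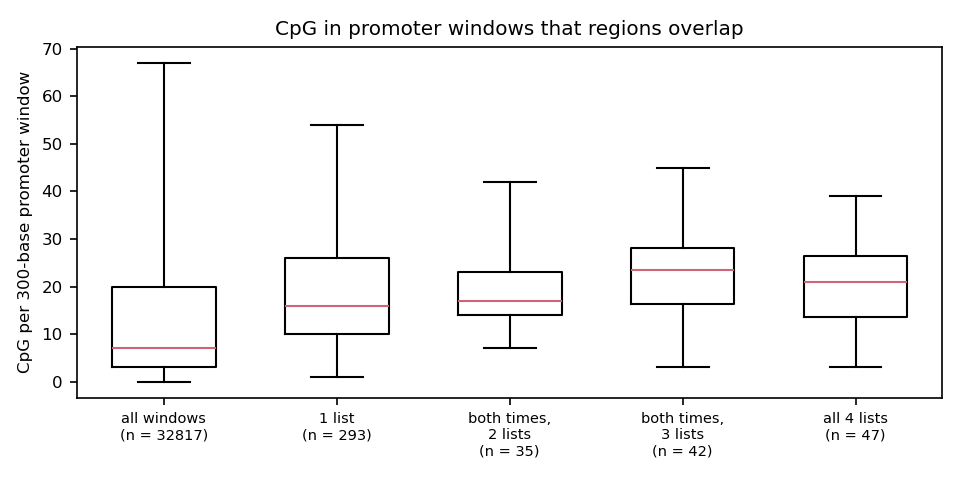
Number of CpG in promoter windows of 300 bases (y axis) for all windows and for windows that regions in 1 list, partly shared regions in 2 or 3 lists and regions in all 4 lists overlap. Boxes span the quartiles with the median as a line, and whiskers reach the lowest and the highest window. The medians of the groups drawn run from 7 for all windows to 23.5 for windows touched by regions in 3 lists.

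Motifs in these windows were counted on either strand. GGGCGG was in 51 of 76 windows (67.1%, exact interval 55.4 to 77.5), against 35.6% of all windows. Of the windows touched by other classes it was in 58.4% for regions in 1 list, 72.7% for 0 h only, 54.5% for 24 h only and 61.7% for all 4 lists. The E-box CACGTG was in 1 (1.32%) against 7.15%. In the other classes CACGTG was in 8.87% for regions in 1 list, 11.4% for 0 h only, 12.1% for 24 h only and 17.0% for all 4 lists. TGACGTCA, the full site of cyclic AMP response element binding factors, was in 3 (3.95%, exact interval 0.822 to 11.1) against 1.79%. In the other classes TGACGTCA was in 2.73% for regions in 1 list, 0 of 44 for 0 h only, 3.03% for 24 h only and 6.38% for all 4 lists. AGATAA, a form of the GATA site, was in 0 of 76, which allows a share of up to 3.95%, against 11.2% of all windows. It was in 5.46% for regions in 1 list, 2.27% for 0 h only and 2.13% for all 4 lists. For 24 h only it was in 0 of 33. TGATAA was in 2 (2.63%) against 9.06%. In the other classes TGATAA was in 2.73% for regions in 1 list, 4.55% for 0 h only, 6.06% for 24 h only and 2.13% for all 4 lists. The NRF1 consensus was in 1 (1.32%) against 0.966%. The touched windows also had the higher GC content given above, and its part in these shares was not tested.

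Chromosome 10 held more of the partly shared regions than any other chromosome. It had 109 of 687 (15.9%, interval 13.2 to 18.8), where all merged regions together had 9.95% there. Next came chromosome 12 with 52 and chromosome 2 with 50, and chromosome X had 9. Regions in 1 list were on chromosome 10 in 8.94% (Fisher's exact test, two-sided, adjusted over 8 tests, p = 1.20e-07). Regions of both hairpins at 1 time only were there in 12.4%, 3.48 points fewer (same exact test, adjusted p = 0.0481). By time, 0 h only had 11.5% (exact test, adjusted over 6 added tests, p = 0.0226) and 24 h only 14.4% (same exact test, adjusted p = 0.589), so no difference from the latter was shown. The pooled call was lost with 1 region per 50 kb, at 3.15 points (same exact test, adjusted p = 0.0815). Against regions of all 4 lists (14.8%) the difference was 1.10 points (same exact test, adjusted p = 0.756), and between 3 lists (14.5%) and 2 lists (17.0%) it was -2.50 points (adjusted p = 0.459).

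On chromosome 10 the regions were at gene ends less often than on the other chromosomes, and near the share of all merged regions there. Of the 109 there, 11 (10.1%, interval 5.15 to 17.3) were at a gene end, against 182 of 578 (31.5%, interval 27.7 to 35.4) on the other chromosomes. For all merged regions the shares were 9.77% (98 of 1003) on chromosome 10 and 13.6% elsewhere. For regions in 1 list they were 8.54% on chromosome 10 and 10.4% elsewhere. Partly shared regions were also counted per 5 Mb, without a count of all merged regions there, so these counts are not shares. The 5 Mb with the most partly shared regions in the genome ran from 70 to 75 Mb of chromosome 10 and held 25, followed by the next 5 Mb with 13 and by 115 to 120 Mb with 12.

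Pcdh15, for a protocadherin of the tip links between sensory hairs of the inner ear, lies in that stretch. Its model spans chr10:73096277-74649831, or 1554 kb, and 11 partly shared regions lay in it, 7 of them in 3 lists. Another 4 regions in its body stood in all 4 lists, 5 in both hairpins at 0 h only, 10 in 1 list and 0 in both hairpins at 24 h only. The starts of the peaks within a region differed by 0 to 25 bp there. At chr10:74384333-74384483 the peaks of both hairpins at 0 h and of hairpin 133 at 24 h all began at 74384333, and the last region, chr10:74631920-74632077, began at 74631927 for hairpin 14 at 0 h and at 74631920 for both hairpins at 24 h. Each of the regions was far inside the gene, at 17833 to 688680 bp from its nearer end.

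In all, 478 protein-coding genes had a partly shared region in the body or within 1 kb and 45 had more than 1. After Pcdh15 came Lin7a, for a scaffold protein of cell junctions, with 4, and Ntn4, for a netrin of basement membranes, with 3, both on chromosome 10. Of the 15 genes named for their number of regions, Trhde and Bcr are on chromosome 10 too. Trhde encodes the enzyme that degrades thyrotropin-releasing hormone and had 2 regions in 3 lists each, 59272 and 21744 bp past its start site. Abr, which encodes a relative of the Bcr protein, also had 2 regions of 3 lists, at -291 bp and 286 bp from their nearest start sites. Lmx1b and Lhx9, for LIM homeobox factors, Gpr37, for an orphan receptor, Gria4, for a glutamate receptor subunit, Jup, for plakoglobin, and Cadm1, for an adhesion molecule, had 2 each. At Gpr37 the region at chr6:25689864-25690022, in hairpin 133 at both times, spans a start site. The one at chr6:25690102-25690266, in hairpin 14 at 0 h and both hairpins at 24 h, lies before that start site. The remaining 3 are predicted genes, Gm37013, Gm38666 and Gm38667, which share the same 2 regions in overlapping models on chromosome 18.

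Developmental transcription factors were the longest of the gene lists and had the most genes with a partly shared region, and by share the shorter list of Hox cluster genes was higher. Over all 21887 protein-coding genes, 649 (2.97%) had one in the body or within 10 kb. Among homeobox, paired, T-box and Sox factors outside the Hox clusters, 22 of 156 (14.1%) did, with 28 distinct regions. Of these regions 20 (71.4%) stood in 3 lists, where 304 of all 687 did (44.3%). Genes with such a region included Dbx1, Dlx2, Emx2, Irx5 and Isl1 and, named after their values were seen, Lhx4, Lhx9, Lmx1b, Meis1, Mnx1, Pax3, Pax6, Tbx3 and Tbx5. These factors pattern the neural tube, limbs, eyes and heart of the embryo. The Dbx1 region, chr7:49636240-49636435, began at 49636285 in hairpin 133 at 0 h and at 49636240 in both hairpins at 24 h, 498 bp inside the gene by its centre. Emx2 had its region, chr19:59458054-59458285, 521 bp before the start site, beginning at 59458054 in hairpin 14 at 0 h and 81 bp further on in both hairpins at 24 h. At Irx5 the starts differed by 1 bp, 92359774 in hairpin 14 at 0 h and 92359775 in both hairpins at 24 h. The list was written with earlier results of these data known, and no set test was made.

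Of the 39 Hox cluster genes, 9 (23.1%) had a partly shared region within 10 kb, beside 2.97% of all protein-coding genes. The 9 genes had only 4 distinct regions, since neighbouring Hox genes share them. The region at chr6:52252810-52252976 lies between Hoxa11 and Hoxa13, and the one at chr15:102931890-102932051 between Hoxc12 and Hoxc13. Both stood in hairpin 14 at 0 h and in both hairpins at 24 h. The region at chr11:96314763-96314923 is inside Hoxb3, and the fourth is at Hoxb9. Secreted ligands of the Wnt, Fgf, Bmp and hedgehog families had 6 of 58 (10.3%), beside the same 2.97%. They were Dhh, Fgf3, Fgf8, Gdf6, Shh and Wnt16, each with 1 region in the body. Shh, for the ligand that patterns limb and neural tube, had chr5:28465285-28465461 in both hairpins at 0 h, from 28465285, and in hairpin 14 at 24 h, from 28465311. Fgf8 had chr19:45741677-45741845 in hairpin 133 at 0 h and both hairpins at 24 h.

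Genes of the erythroid programme were not shown to have a partly shared region less often than other genes. None of 26 erythroid transcription factor genes, which include Gata1, Tal1 and Klf1, had one within 10 kb, which allows a share of up to 11.5%, and none of 49 genes of Epo and Kit receptor signalling did, which allows up to 6.12%. With a genome-wide share of 2.97%, lists of these lengths could hold 0 without differing from other genes. Of the 51 genes listed for globins, haem, iron and the red cell membrane, only Sptbn1 had one (1.96%). Sptb, another spectrin gene of that list, had none. Cybrd1, which encodes a ferric reductase of the gut and was not on that list, had a region in hairpin 133 at both times 11 bp from its start, at chr2:71117982-71118149.

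Plcg1 itself, the gene the hairpins target, had no partly shared region, and the nearest was 2568 kb away. Among the genes for phospholipases C, protein kinases C and calcium signals, 5 of 70 (7.14%) had one, beside 2.97% of all protein-coding genes. They were Dgkz, a diacylglycerol kinase, Nfatc1, a calcium-regulated transcription factor, Plcb4 and Plcd1, phospholipases C of other classes, and Prkch, a protein kinase C. Of their 6 regions 1 stood in 3 lists. Prkch had 2 regions, one across its start at chr12:73584692-73584855 in hairpin 133 at both times and one inside at chr12:73656918-73657100 in hairpin 14 at both times. The Plcd1 region is the Dlec1 promoter region printed above, 8994 bp from Plcd1.

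Markers of other blood lineages had 5 of 56 genes (8.93%) with 4 distinct regions, beside 2.97% of all protein-coding genes. The regions were near Gata3 and Zap70 of T cells and Gp5, Pf4 and Ppbp of megakaryocytes, Pf4 and Ppbp sharing the region at chr5:90772537-90772713. Stem and progenitor regulators had 3 of 29, Hmga2, Lin28a and Meis1, all with regions in 2 lists. The Lin28a region, chr4:134018428-134018592, was 306 bp past a start site in hairpin 14 at 0 h and hairpin 133 at 24 h. The p53 and cell cycle list had 2 of 51, Pmaip1 and Trp63, and the DNA methylation machinery 1 of 23, Mbd4, whose region overlaps the promoter of its neighbour Efcab12. Imprinted genes had 2 of 52, Grb10 and Rtl1, at 3.85% close to the genome-wide share. At Rtl1 the 3 peaks of chr12:109599410-109599560 were identical. Cadherins had 3 of 53, Cadm1, Cdh13 and Pcdh15, and housekeeping genes 1 of 20, Actb. Over all lists, 59 of 715 distinct genes (8.25%) had a region, beside the same 2.97%.

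The genes with ends nearest to a partly shared region were named for each combination of lists. Among the regions in both hairpins at 0 h and hairpin 133 at 24 h these were Efs, an adaptor protein, Tnc, Sptlc1, a subunit of the enzyme that starts sphingolipid synthesis, Adamts12, a secreted metalloprotease, and Lhx1, at 71 to 152 bp. At Sptlc1 both 0 h peaks began at 53377251 and the 24 h peak at 53377218. With hairpin 14 at 24 h in place of hairpin 133 they were Pamr1, Ap5b1, Itga11, an integrin chain, Rhoc, a small GTPase, and Chga, for chromogranin A of neuroendocrine granules, at 14 to 120 bp. The Chga region, chr12:102554957-102555166, had its 0 h peaks 59 bp from its 24 h peak.

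Regions of both hairpins at 24 h with hairpin 133 at 0 h were nearest to Tcte1, Ptprf, Fut9, a fucosyltransferase, Ccdc166 and Znrd1as, at 17 to 124 bp. With hairpin 14 at 0 h they were nearest to Syt7, a calcium sensor of exocytosis, Arid3c, Cacna1g, a calcium channel, Trh and Ncan, a brain proteoglycan, at 22 to 98 bp. At Cacna1g and Znrd1as all 3 peaks began at the same base.

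Regions in 2 lists named by the same rule were at Cybrd1, Prkch and Gpr37 for hairpin 133 at both times, and at Tm6sf2, Duoxa2 and Hspb1, a small heat shock protein, for hairpin 133 at 0 h with hairpin 14 at 24 h. They were at Cldn1, Zcchc12 and Nrp1, a receptor for semaphorins and vascular growth factor, for hairpin 14 at 0 h with hairpin 133 at 24 h, and at Dlec1, Gstt1, a glutathione transferase, and Capn11, a calpain, for hairpin 14 at both times. Zcchc12, at chrX:36195846-36196048, is among the 9 regions on the X chromosome. Gstt1, on chromosome 10, had 2 regions, both in hairpin 14 at both times.

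One region overlaps a microRNA hairpin. The region at chr5:64970333-64970491, in hairpin 133 at 0 h and hairpin 14 at 24 h, overlaps 63 bp of the Mir574 hairpin (chr5:64970318-64970395, plus strand), which holds 7 CpG. It was picked after its position was seen. The mature miR-574-3p lies wholly inside the region, and miR-574-5p starts before it. RefSeq gives them as follows, with the seed (bases 2 to 8) in capitals.
miR-574-3p: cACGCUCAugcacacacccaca
miR-574-5p: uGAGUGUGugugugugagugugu
The seeds differ.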

How the data were processed

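Methyl-CpG capture was followed by sequencing in 6 libraries, and the peak lists of 4 were used. The submitters' processing notes name the build mm10 and, as tools, BWA, Picard, SAMtools and HOMER. No versions, roles, peak threshold or control sample are given in the sources used here. As deposited, a list gives each peak's chromosome, start and end in bp, without score, count or strand, and depth is unknown. Coordinates are printed 1-based.

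The members and the gene lists were chosen with earlier results of these data known. Peaks were merged at 1 bp of overlap in Python 3.11.15. Classes of distinct regions were compared with Fisher's exact test (two-sided, SciPy 1.17.1), adjusted by Benjamini-Hochberg over 8 tests, and over 6 tests that were added after the data were seen. Exact binomial intervals at 95% cover counting error only, and a share of 0 is given the limit of 3 counts of the total. Merging and tests were checked on simulated lists. Regions are not replicates, and neighbouring ones share a locus.

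Genes came from a RefSeq table on GRCm38.p6 with 21887 protein-coding genes on assembled chromosomes. Promoter windows were available for 17492 of them (79.9%) and for none on chromosome 18, whose regions are left out of start-site and window shares. In 14 gene lists, Ventx and Zfp264 matched no gene. Some genes of the lists are not reported here by name. Unplaced contigs were left out of positions.

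Named genes are up to 15 with 2 or more regions in the body or within 1 kb, then up to 5 per combination of 3 lists and up to 3 per combination of 2 lists with the end closest to a region, then up to 5 per gene list with regions in 3 lists first, 8 genes with the most covered promoter window, and Plcg1. Alternatives were overlaps of 76 bp, gaps of 150 bp, regions over 226 bp, identical peaks, gene ends of 500 bp and 2 kb, 1 region per 50 kb, chromosome 10 or gene ends left out, each time on its own, and other gene windows.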

Additional observations from a re-analysis of the deposited data

How the results depend on the processing

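Of 51 alternatives, 42 kept the direction, the side of the threshold or, for counts, stayed within 1.5 times. Leaving out peaks of identical coordinates gave 398 members in place of 687. It turned the gene-end difference of 3 lists from 2 lists to -10.7 points with 15 regions of 3 lists left (adjusted p = 0.557, Fisher's exact test), and brought that from all 4 lists to -9.72 points with 3 regions of all 4 lists left (adjusted p = 0.557); fewer regions were tested. Against regions of 24 h only, the difference was 2.13 points at gene ends and 1.50 points on chromosome 10 (same exact test, adjusted p = 0.589 for both). With 1 region per 50 kb, the chromosome 10 difference from regions of 1 time was 3.15 points (same exact test, adjusted p = 0.0815). With gene ends left out, 3 lists against 2 lists on chromosome 10 turned to 0.61 points (same exact test, adjusted p = 0.909), a difference not called in either form; the cause was not tested. List genes with a region were 37 by gene body and 93 within 50 kb, in place of 59. Read depth is unknown, so no limit can be set on methylation that was not listed. No paired analysis was possible because each hairpin and time is 1 library: the 2 libraries of a hairpin pair the times, but the lists hold no value per region to test over them, and the labels give no replicate numbers.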
